A study of Mus musculus with 4 samples.

Results

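Transcripts of 33 complement components and regulators were followed in 4 lung tumours of KP mice, out of 39017 genes in the count table. The 33 genes were taken by symbol from the annotated table of raw counts. Cr2 has a second row in that table, which held 0 counts, so the 33 symbols filled 34 rows. The mice were male C57BL/6 animals of the KP lung adenocarcinoma model, with floxed p53 alleles (p53 Fl/Fl), and the labels also give a heterozygous fl/wt genotype without naming the gene. By the methods of the study, control mice had either no floxed Slc2a1 allele or 1 of them. The column names of the deposited log2 values mark the same 4 tumours as WT. Each mouse received 1500 viral units of a lentivirus into the trachea. Its Cre is driven by the PGK promoter, which is active in most cell types and does not restrict recombination to 1 kind of lung cell. Tumours were macrodissected 22 weeks and 5 days after initiation and dissociated to single cells, and polyadenylated RNA was sequenced with 1 library per tumour. All 4 tumours belong to 1 group (Control), so what can be asked of these data is how abundant each complement transcript was and how far the tumours differed from one another.

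Complement is a cascade of plasma and membrane proteins that tags and lyses cells. Antibody-bound C1q starts the classical pathway, sugar-binding ficolins and collectins start the lectin pathway, and the alternative pathway runs on spontaneously activated C3 with factors B and D. All of them form convertases that cleave C3 and then C5, after which C6 to C9 assemble the membrane attack complex, while soluble and membrane-bound regulators protect host cells. The liver makes most of the circulating components, macrophages make C1q, and lung epithelium is known to make C3 and C5 locally.

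Total counts were between 8151613 and 8799007 per tumour, and values are given as CPM, counts per 1e+06 after TMM scaling of the library sizes. Where genes are compared with each other the CPM was divided by the length of the annotated exons in kilobases, written CPM per kb. A value of at most 3 counts (0.330 to 0.370 CPM) was treated as the floor, which covers counting error only. The alveolar type 2 markers, which characterise the labelled tissue, were abundant, with a mean log2 CPM of 11.13, 12.22, 12.15 and 12.29 in tumours 1 to 4. RNA came from whole suspensions, in which fewer cells of a type and less RNA per cell cannot be told apart.

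Upstream sequence is shown for 3 members on which the results turn, C3, Hc and C6, in the 215 bases from 250 to 36 before the RefSeq start. The sequences are those of RefSeq on GRCm38.p6, read 5′ to 3′ on the strand of the gene, and capitals mark matches to 6 short motifs that were chosen after the sequences had been seen. C3 lies at chr17:57228172-57228386 (minus strand), Hc at chr2:35061448-35061662 (minus strand) and C6 at chr15:4726960-4727174 (plus strand).
C3: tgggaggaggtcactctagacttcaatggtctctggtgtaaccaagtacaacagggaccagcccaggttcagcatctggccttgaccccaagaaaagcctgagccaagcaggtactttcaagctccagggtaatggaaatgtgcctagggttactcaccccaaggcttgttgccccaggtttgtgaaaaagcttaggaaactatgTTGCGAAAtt
Hc: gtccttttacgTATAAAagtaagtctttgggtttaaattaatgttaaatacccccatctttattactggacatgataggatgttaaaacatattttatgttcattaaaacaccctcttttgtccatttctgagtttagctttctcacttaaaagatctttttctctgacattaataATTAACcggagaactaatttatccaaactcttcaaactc
C6: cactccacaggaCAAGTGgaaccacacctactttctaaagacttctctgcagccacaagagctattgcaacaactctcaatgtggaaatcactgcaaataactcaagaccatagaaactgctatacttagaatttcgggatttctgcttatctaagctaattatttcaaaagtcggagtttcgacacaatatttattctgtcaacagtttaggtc
In C3 the capitals are a C/EBP-type motif (TTNNGCAA, on the minus strand) 45 bases before the start, a motif found in 8.60% of 32851 promoter windows of the same length. In Hc they are a TATA-type motif (TATAAA, found in 9.75% of windows) 239 bases before the start and part of an HNF1-type site (GTTAAT, on the minus strand as ATTAAC, found in 5.70%) 74 bases before it. In C6 they are an NKX2-1-type motif (CAAGTG, found in 10.3%) 238 bases before the start. Both strands were searched, and neither the ETS-type motif GAGGAA (found in 19.96% of windows) nor the forkhead-type motif TGTTTNC (found in 15.7%) occurred in the 3 windows. Such letters describe the sequence and do not show that a factor binds. RefSeq promoters were at hand for 24 of the 33 members.

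The complement transcripts of these tumours were dominated by the fluid-phase regulator clusterin, and C5, factor I, C1q and C3 were the next most abundant on average. Clu reached 1543 CPM per kb ± 866 (SD, n = 4) and Hc, the mouse gene for C5, 124.5 ± 74.1. Cfi stood at 68.3 ± 50.4 CPM per kb, C1qb at 38.4 ± 4.18, C3 at 36.4 ± 8.38 and C1qa at 32.9 ± 7.16. In contrast, factor D (Cfd) and the C8 chains C8a and C8b had 0 counts in all 4 tumours, a limit of 3 counts per library. C9 and Masp1 did not exceed 3 counts in any tumour either. In all, 22 of 33 members lay above the floor in every tumour and 5 at the floor in every tumour. A mean CPM of at least 1 was reached by 21 of 33 members and by 14225 of the 39017 genes in the count table. By length-scaled level, Clu made up 74.6% ± 12.5 (SD, n = 4) of the summed members, with tumours between 58.9% and 89.4%. Without Clu, Hc held 27.9% ± 15.3 of the sum, Cfi 16.5% ± 11.7, C1qb 9.20% ± 2.03 and C3 8.54% ± 1.39. Cfi exceeded Hc per kb in tumours 1 and 2 and lay under it in tumours 3 and 4, so the order of the 2 is not resolved. The levels of C3 overlapped those of C1qb and C1qa across tumours.

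**Figure D1:**
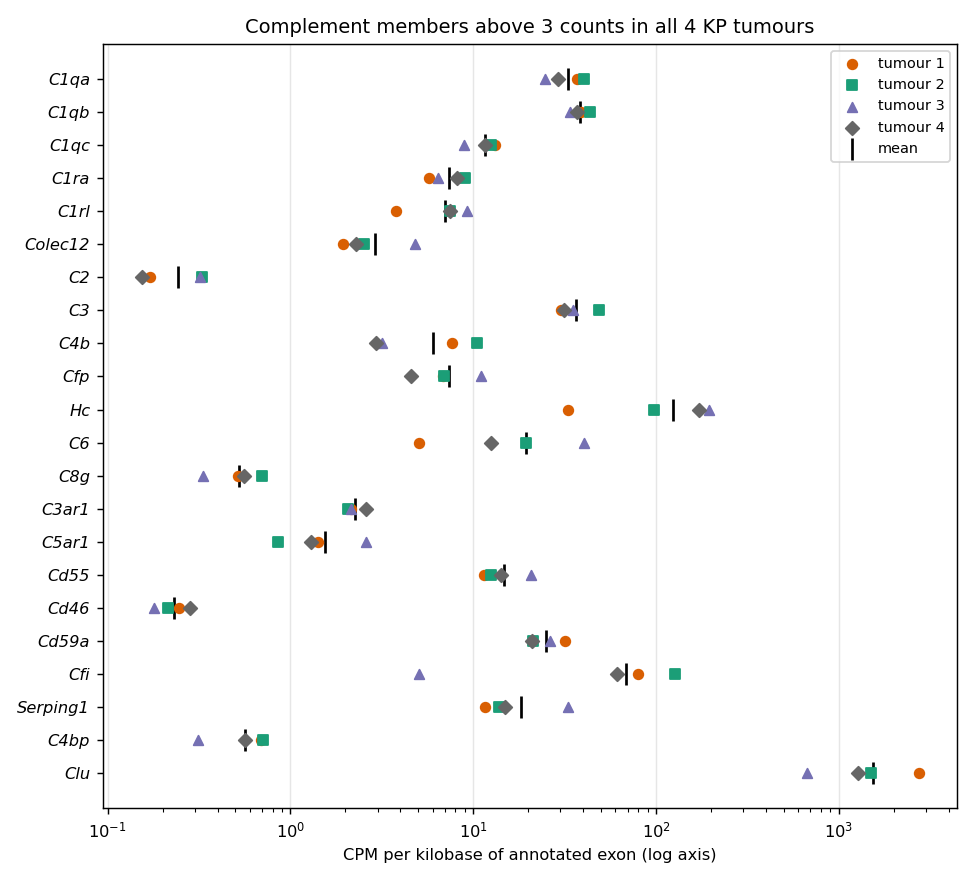
Level of the 22 members that exceeded 3 counts in all 4 tumours, as CPM per kilobase of annotated exon on a log axis, with members in rows by role, 1 symbol per tumour and a bar at the mean. Clu lies farthest right at a mean of 1543, and the symbols of Cfi, C6 and Hc are spread wide, with ratios of highest to lowest of 25.1, 8.04 and 5.91.

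The 21 members that averaged at least 1 CPM were tested for spread between tumours with a chi-square statistic that sets the 4 counts against Poisson noise (3 degrees of freedom), with Benjamini-Hochberg adjustment over all 14225 genes of that level. Of these 21 members 19 varied beyond counting noise at an adjusted p under 0.05, or 90.5%, against 76.7% of all genes tested. C3ar1 and Cd46 did not pass. Without tumour 3 the shares were alike, at 63.6% of members (14 of 22) and 62.4% of all genes (8807 of 14120). The test is more often passed by abundant genes: at a mean CPM of at least 10 it was passed by 16 of 16 members and by 85.3% of all genes. The SD of log2 CPM between tumours had a median of 0.54 over the members tested and of 0.29 over all genes tested. Tumour 2 and tumour 3 held the highest value of 8 members each, and tumour 1 and tumour 3 the lowest value of 8 each. Over all genes tested, tumour 2 held the highest value in 20.4% and tumour 3 in 30.1%, and tumour 1 held the lowest in 30.3% and tumour 3 in 32.6%. A tumour counted as apart in a gene when the gap to its nearest neighbour, divided by the whole range, passed Dixon's 95% limit for 4 values. C3ar1 was the 1 member of 21 with a tumour apart, against 5.86% of all genes tested. Nothing in the labels says whether the tumours came from separate mice, and the test measures the spread between these libraries.

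**Figure D2:**
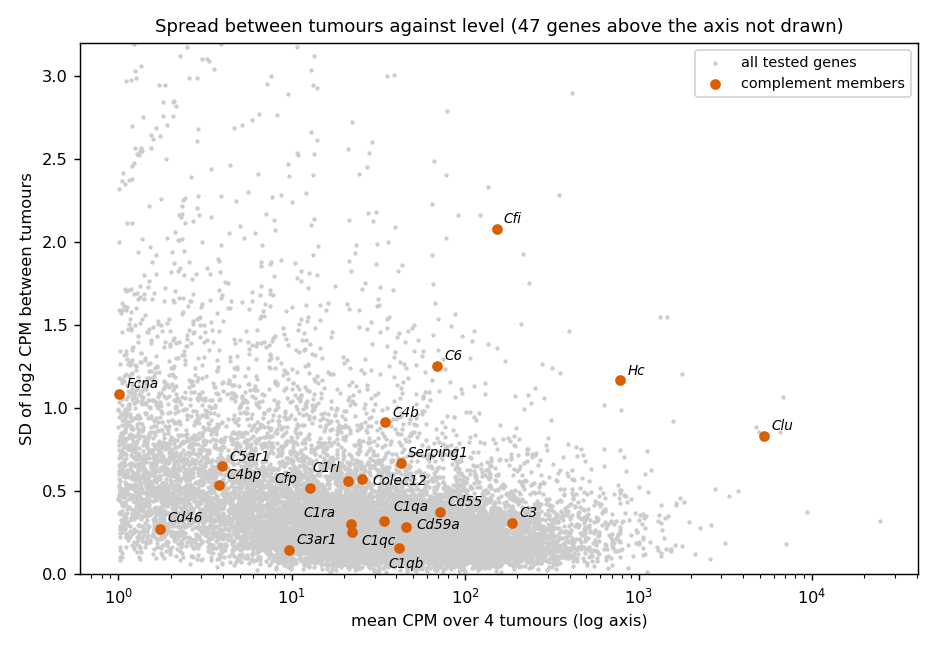
SD of log2 CPM between the 4 tumours against mean CPM (log axis) for genes that averaged at least 1 CPM (grey) and the 21 members among them (orange). Cfi, C6 and Hc lie high for their level, with SDs of 2.08, 1.25 and 1.17. C1qb and C3ar1 have the lowest SDs of the 21 members, 0.16 and 0.15, above 18.1% and 15.7% of all genes tested.

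The 3 chains of C1q, the recognition molecule of the classical pathway, were abundant, and each was lowest in the same tumour. Their genes lie next to each other on the minus strand of chromosome 4, with C1qb at 136880129 to 136886187, C1qc at 136889804 to 136893065 and C1qa at 136895917 to 136898803 (GRCm38). C1qa (ENSMUSG00000036887) had 38.6, 41.9, 25.7 and 30.4 CPM in tumours 1 to 4 (mean 34.2 ± 7.44, SD, n = 4). C1qb (ENSMUSG00000036905) had 42.4, 47.6, 36.8 and 40.2 CPM (41.7 ± 4.55), and C1qc (ENSMUSG00000036896) 25.4, 24.05, 17.1 and 22.5 CPM (22.3 ± 3.62). That was tumour 3, and the highest tumour exceeded it 1.63-fold for C1qa, 1.30-fold for C1qb and 1.48-fold for C1qc. The adjusted p of the chi-square test was 2.05e-08 for C1qa, 0.00878 for C1qb and 0.00328 for C1qc. C1qb no longer passed without tumour 2 (adjusted p = 0.222) or without tumour 3 (0.0849), and C1qc no longer passed without tumour 3 (0.52). On average the 7 general macrophage markers went the other way, with a mean log2 CPM of 4.53, 4.66, 5.32 and 4.88. Of the 7, 5 were highest in tumour 3, whereas Mertk was highest in tumour 1 and Ms4a7 in tumour 4. The summed CPM of the 7 was 204 in tumour 1, the lowest, and 385 in tumour 3, the highest. None of the 7 was at the floor in every tumour. C1qa therefore stood 0.75, 0.74, -0.64 and 0.05 log2 units from the mean of the macrophage markers in tumours 1 to 4. The 5 pan-leukocyte markers were all highest in tumour 3, with a mean log2 CPM of 4.29, 4.54, 5.50 and 4.67. So were the 6 alveolar macrophage markers, with a mean log2 CPM of 3.26, 3.33, 5.55 and 4.14. The part of these cells in the C1q values was not tested.

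The proteases that follow C1q were moderate in level. C1ra (17.1, 26.8, 19.3 and 24.4 CPM; mean 21.9 ± 4.51, SD, n = 4) encodes the C1r protease that C1q activates. It shares 2432 nt at 97.9% identity with C1rb, which had 7 counts over the 4 tumours, so reads of the 2 genes could have been exchanged. C1rl, which encodes a C1r-like protease, had 11.4, 22.5, 28.01 and 22.6 CPM (21.1 ± 6.96) and was lowest in tumour 1 by 2.45-fold against tumour 3. Without tumour 1 it no longer varied beyond counting noise (adjusted p = 0.053). Serping1 encodes the C1 inhibitor, which inactivates C1r and C1s. Its CPM was 26.8, 32.2, 76.9 and 34.5 (42.6 ± 23.1), with tumour 3 at 2.86 times tumour 1. Without tumour 3 the largest ratio between tumours was 1.29. The inhibitor exceeded its target C1ra per kb in all 4 tumours, by 1.21 ± 0.78 log2 units (SD, n = 4) or 2.31-fold.

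Genes of the lectin pathway were low per kb, including the membrane collectin Colec12, a scavenger receptor that binds sugars. Colec12 stood at 2.90 ± 1.30 CPM per kb (SD, n = 4), above 28.5% of the tested genes with an annotated length. Mbl1, a mannose-binding lectin that is not among the members, stood at 4.62 ± 1.81 CPM per kb, above 39.9% of them. Colec12 had 16.9, 22.2, 42.0 and 19.98 CPM (25.3 ± 11.3, SD, n = 4) and was highest in tumour 3. Many other genes hold near-identical stretches, the longest in each gene 80 to 218 nt, against 8725 nt of Colec12 exon. Reads of such stretches could have been exchanged. Without tumour 3 the spread of Colec12 did not pass the test (adjusted p = 0.068). Fcna, which encodes ficolin A, a soluble starter of the pathway, had only 10, 15, 2 and 8 counts. It passed with all 4 tumours (adjusted p = 0.0354) but not without tumour 3 (0.364), and without tumour 1 or tumour 2 its mean fell under the limit for testing. The lectin pathway proteases were hardly seen, with 2, 1, 1 and 1 counts of Masp1 and 2, 6, 1 and 0 counts of Masp2. Of the Masp2 exons 54.9% lie opposite exons of the abundant gene Tardbp, and the strand setting of the counting is not given in the sources used here.

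C3, the protein on which all pathways converge, spread less between tumours than C4b, with an SD of log2 CPM of 0.31 against 0.92. C3 (ENSMUSG00000024164, chr17:57203970-57228136, minus strand, 41 exons), whose upstream sequence is printed above, had 155, 250, 182 and 162 CPM in tumours 1 to 4 (mean 187 ± 43.1, SD, n = 4). Tumour 2 was highest and tumour 1 lowest, 1.61-fold apart (adjusted p = 1.16e-54). C4b encodes C4, the partner of C2 in the classical and lectin convertase. Its CPM was 43.4, 59.7, 18.0 and 16.7 (34.4 ± 20.8), higher in tumours 1 and 2 than in tumours 3 and 4, with 3.59-fold between the extremes (adjusted p = 4.02e-67). C4b shares 526 nt at 98.3% identity with C4a, which had 79 counts against 1194 of C4b over the 4 tumours. C3 exceeded C4b per kb in all 4 tumours, by 2.77 ± 0.79 log2 units or 6.84-fold, with 1.99, 2.21, 3.48 and 3.42 in tumours 1 to 4. The nearest profiles to C3 over the 4 tumours, among 10253 genes that averaged at least 10 CPM, were those of Ppp2r3a, 6330416G13Rik and Mrps6, at distances of 0.048, 0.056 and 0.069 log2 units after centring. For C1qa they were Rcn2, Sco1 and Wbp11, at 0.068, 0.077 and 0.077.

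The serine proteases that build the convertases on C3 and C4 were near or at the floor. C2, the catalytic part of the classical convertase, had 6, 11, 10 and 5 counts (0.660, 1.28, 1.23 and 0.595 CPM), and Cfb, its counterpart in the alternative pathway, had 3, 15, 0 and 14 counts. With all 4 tumours both genes had a mean CPM under 1 and were not tested. They share exons on the same strand with the read-through gene Gm20547, over 42.8% of the C2 exon length and 79.5% of the Cfb exon length, and Gm20547 had 0 counts. If reads of shared exons were left out of the counts, both levels are lower limits. Cfd, which encodes factor D, the protease that activates factor B, had 0 counts in every tumour. Fat cells are its best known source, and 4 of the 5 adipocyte markers were at the floor in all tumours. The other, Cidec, had 8, 6, 12 and 13 counts in tumours 1 to 4, and the summed CPM of the 5 was 0.813 to 1.60. The part of fat cells in the Cfd values was not tested. Cfp encodes properdin, which stabilises the alternative convertase and is made by leukocytes. It had 11.9, 12.0, 19.3 and 7.97 CPM (12.8 ± 4.71, SD, n = 4), highest in tumour 3 and lowest in tumour 4 (adjusted p = 6.66e-09). Without tumour 3 the ratio between extremes fell from 2.42 to 1.501. Per kb, Cfp was at least 11.9-fold higher than Cfd in each tumour, with Cfd set to 3 counts per library.

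The terminal pathway was split between 2 abundant genes and 5 that were scarce. Hc (ENSMUSG00000026874, chr2:34983331-35061438, minus strand, 41 exons) encodes C5, which is cleaved to the chemoattractant C5a and to C5b, the seed of the membrane attack complex. Several inbred mouse strains lack C5, but C57BL/6 does not. Hc had 208, 607, 1229 and 1076 CPM in tumours 1 to 4 (mean 780 ± 464, SD, n = 4), low in tumour 1 and high in tumours 3 and 4. Its length-scaled level exceeded that of 97.8% of the tested genes with an annotated length. C6 (ENSMUSG00000022181, chr15:4727175-4814967, plus strand), whose product joins C5b, had 17.9, 69.1, 144 and 44.7 CPM (69.0 ± 54.3). Tumour 1 was lowest for both genes and tumour 3 highest, 5.91-fold apart for Hc and 8.04-fold for C6 (adjusted p = 3.32e-237 for C6). Without tumour 1 the ratios were 2.03 for Hc and 3.23 for C6, and without tumour 3 the ratio for C6 was 3.85. Hc exceeded C3 per kb in all 4 tumours, by 0.14, 1.00, 2.47 and 2.45 log2 units in tumours 1 to 4. Of the 7 alveolar type 2 markers 5 were also lowest in tumour 1, whereas Sftpb and Abca3 were lowest in tumour 3. The summed CPM of the list was 32561, 56100, 52783 and 60344 in tumours 1 to 4, and none was at the floor. The mean of the 5 epithelial markers was instead highest in tumour 1, with a log2 CPM of 9.68, 8.89, 8.77 and 8.94. Of these markers Cdh1 was lowest in tumour 1. The 4 club cell markers had a mean log2 CPM of 3.95, 6.60, 6.68 and 6.14 in tumours 1 to 4. For the 4 ciliated cell markers it was -0.014, 1.85, 2.46 and 2.18. Both means were lowest in tumour 1 and highest in tumour 3, as Hc and C6 were, but single markers differed. Ccdc39 was highest in tumour 1 and lowest in tumour 2, and Tppp3 and Aldh1a1 were also lowest in tumour 2. Foxj1 and Scgb3a2 were highest in tumour 2. In tumour 1 the ciliated mean included Dnah5 at 0 counts and Foxj1 at 2 counts. Hc stood 3.43, 2.97, 1.89 and 2.22 log2 units under the mean of the alveolar type 2 markers in tumours 1 to 4. The part of these cell types in the Hc and C6 values was not tested.

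The rest of the membrane attack complex was scarce. C7 had 1, 4, 23 and 4 counts, with tumour 3 at 2.84 CPM and the others at or under 0.476. Over 4 tumours its mean was 0.972 CPM ± 1.26 (SD, n = 4), under the limit for testing. C8a and C8b had 0 counts. C8g, the third chain of C8, had 7, 9, 4 and 7 counts, and C9, which forms the pore, had 0, 2, 0 and 0. Apart from C7 in tumour 3, transcripts of the pore components after C6 were therefore near or under what this depth can show.

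Receptors for the cleavage fragments of C3 and C5 were low. C3ar1, the receptor of C3a, had 9.24, 8.94, 9.26 and 11.2 CPM (9.66 ± 1.03, SD, n = 4) and did not vary beyond counting noise (adjusted p = 0.46). C5ar1, the receptor of C5a on myeloid cells, had 3.63, 2.21, 6.66 and 3.33 CPM (3.96 ± 1.91) and was highest in tumour 3 (adjusted p = 7.91e-05), as were the pan-leukocyte markers. Without tumour 3 the test was not passed (adjusted p = 0.257). C5ar1 stood 2.41, 3.36, 2.75 and 2.91 log2 units under the mean of the pan-leukocyte markers in tumours 1 to 4. C3ar1 exceeded C5ar1 per kb in tumours 1, 2 and 4 but not in tumour 3, a mean difference of 0.64 ± 0.66 log2 units. Cr2, which in mice gives the receptors CR1 and CR2 of B cells and follicular dendritic cells, had 1, 4, 5 and 2 counts. The 6 B cell markers had a summed CPM of 11.1, 19.7, 35.9 and 23.8, and none was at the floor in every tumour.

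Membrane regulators were led per kb by Cd59a, which blocks insertion of C9. Its CPM was 57.4, 38.5, 47.4 and 37.9 (45.3 ± 9.18, SD, n = 4), highest in tumour 1. Cd55, which speeds the decay of convertases, had 55.8, 60.9, 101 and 69.0 CPM (71.6 ± 20.2), highest in tumour 3 and 1.81-fold above tumour 1 (adjusted p = 3.86e-30). Per kb Cd55 lay under Cd59a in all 4 tumours, by a mean of -0.78 ± 0.49 log2 units (Cd55 minus Cd59a). That order turns with the length used: without length scaling the mean difference was 0.64, and with the longest transcript as length it was -0.15. Cd46, the membrane cofactor for factor I, which in mice is mainly a testis gene, had 1.87, 1.63, 1.36 and 2.14 CPM from 11 to 18 counts and did not vary beyond counting noise (adjusted p = 0.685). Cd55 exceeded Cd46 by 5.94 ± 0.59 log2 units per kb, the widest gap of the 11 pairs in which neither gene was at the floor. Of the Cd46 exon length 14.2% lies opposite A330023F24Rik. Cd55 shares 379 nt at 98.4% identity with Cd55b, which had 11 counts.

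Among the soluble regulators, factor I gave the widest spread of all members tested. Cfi (ENSMUSG00000058952, chr3:129835884-129875332, plus strand, 14 exons) encodes the protease that cuts C3b and C4b. It had 177, 282, 11.2 and 137 CPM in tumours 1 to 4 (mean 152 ± 112, SD, n = 4), from 1605, 2428, 91 and 1149 counts. Tumour 2 exceeded tumour 3 by 25.1-fold, and without tumour 3 the largest ratio was 2.06. The SD of log2 CPM was 2.08, above 98.8% of the genes tested. Relative to its substrate C3, Cfi was 1.40, 1.39 and 0.97 log2 units higher per kb in tumours 1, 2 and 4 and 2.80 lower in tumour 3. The mean of the 4 differences was 0.24 ± 2.03, with no common direction. Of the 6 hepatocyte markers 3 were tested, and all 3 were, like Cfi, lowest in tumour 3. Alb had 455, 237, 27.4 and 215 CPM in tumours 1 to 4. Apoa1 had 25.9, 25.0, 0.123 and 4.64 CPM, and Ttr 11.1, 8.94, 0.740 and 5.83 CPM. The summed list was 493, 274, 28.4 and 226 CPM. The other hepatocyte markers were near nothing, with Serpina1a at the floor in all tumours, Fgb at most 1.16 CPM and Ahsg at most 1.86 CPM. The part of such cells in the Cfi values was not tested.

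Clu (ENSMUSG00000022037, chr14:65968483-65981547, plus strand, 9 exons) encodes clusterin, a secreted chaperone that keeps the C5b complex off membranes. Clu had 9392, 5128, 2302 and 4394 CPM (mean 5304 ± 2977, SD, n = 4), highest in tumour 1 and lowest in tumour 3, 4.08-fold apart. Its length-scaled level exceeded that of 99.95% of the genes tested. Without tumour 1 the ratio was 2.22, and without tumour 3 it was 2.14. Of the 5 epithelial markers 4 were also highest in tumour 1, whereas Cdh1 was lowest there. Tumour 1 had a summed CPM of 4430 for the list, the others 2660 to 2819, and the part of epithelial content in the Clu values was not tested. C4bp, a cofactor of factor I for C4b, had 4.62, 4.76, 2.10 and 3.81 CPM (3.82 ± 1.22). It passed the test with all tumours (adjusted p = 0.0289) and not without tumour 3 (0.653). Vtn, which encodes vitronectin, another binder of the C5b complex, had 2, 3, 6 and 1 counts, against 18655 to 85355 counts of Clu.

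**Figure D3:**
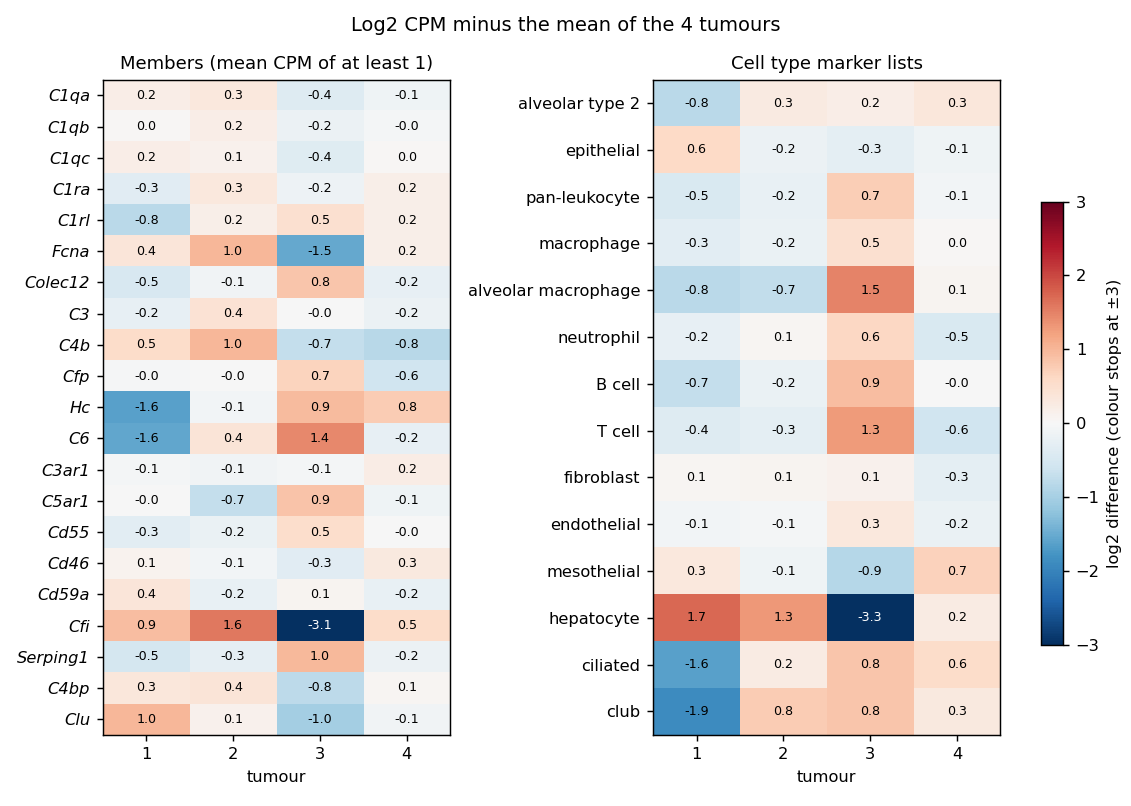
Log2 CPM minus the mean of the 4 tumours, for the 21 members that averaged at least 1 CPM (left) and for the mean of each of 14 cell type marker lists (right), with tumours in columns and red for values above the mean of that row. In tumour 3 Cfi and the hepatocyte list are lowest and C1q is slightly low while the leukocyte lists are high, and in tumour 1 Hc, C6 and the alveolar type 2 list are low.

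In 15 pairs of members with related roles, the length-scaled levels were compared within each tumour with an exact permutation test (sign flips, two-sided) and Benjamini-Hochberg adjustment. In 4 pairs at least 1 gene was at the floor in 1 or more tumours. Of the other 11 pairs, 8 had the same direction in all 4 tumours. The smallest p that 4 tumours allow is 0.125 (adjusted 0.1875), so no pair could pass 0.05, and the directions are a description. Among the C1q chains, C1qb exceeded C1qc by 1.74 ± 0.16 log2 units (SD, n = 4) or 3.34-fold, and C1qa exceeded C1qc by 1.498 ± 0.15. C1qa lay under C1qb by only 0.24 ± 0.18 log2 units, again in all 4 tumours. C1qc has 1931 nt of annotated exon and a longest transcript of 1203 nt, and with the latter as length its gap to C1qb was 1.06. C1ra minus C1rl had no common direction, at a mean of 0.11 ± 0.47.

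**Figure D4:**
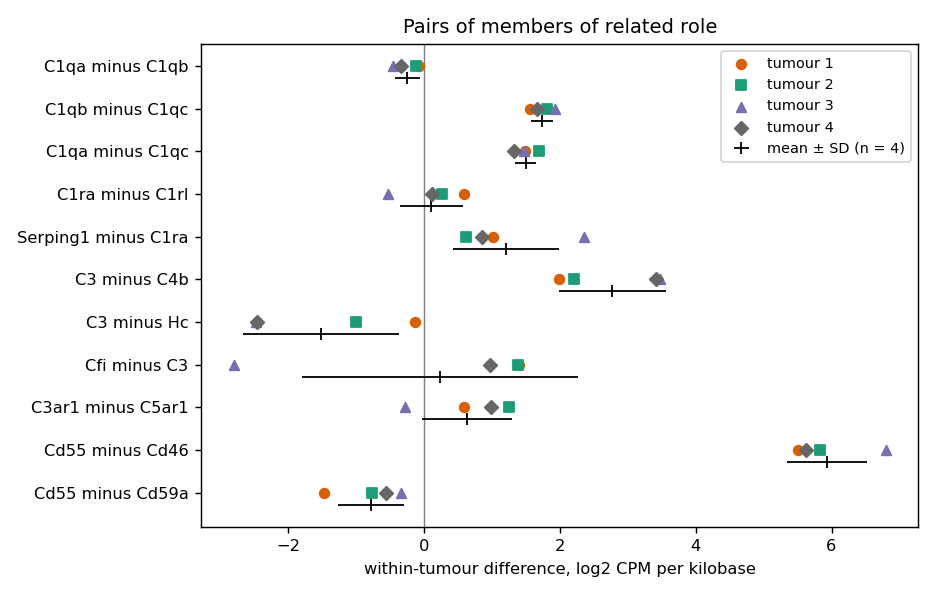
Within-tumour difference in log2 CPM per kilobase for the 11 pairs of members in which neither gene was at the floor, 1 symbol per tumour, with the mean ± SD (n = 4) under each row and a line at 0. The C1q pairs are tight, with SDs of 0.15 to 0.18, whereas Cfi minus C3 runs from 1.40 in tumour 1 to -2.80 in tumour 3.

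Of a further list of 24 complement genes outside the 33, 14 had a mean CPM of at least 1. Of these 14, 12 varied beyond counting noise (85.7%, against 76.7% of all genes tested), and Itgam and Susd4 did not. The 8 most abundant per kb were C1qbp, C1s1, Itgb2, Itgax, Cd93, Susd4, Mbl1 and Cr1l. C1qbp, a mostly mitochondrial protein that can bind C1q, had 97.7, 85.5, 53.1 and 86.2 CPM (80.6 ± 19.2, SD, n = 4), lowest in tumour 3. C1s1, the protease partner of C1r, had 74.4, 47.9, 46.9 and 44.2 CPM, with tumour 1 apart from the others. The subunits of complement receptor 4 were highest in tumour 3, with 31.6, 38.4, 79.0 and 43.2 CPM of Itgb2 and 45.1, 58.9, 101 and 59.3 CPM of Itgax. Cd93, an endothelial and myeloid surface protein once described as a C1q receptor, had 67.9 to 82.9 CPM, and Susd4, a membrane inhibitor of convertases, 27.0 to 33.1 CPM. Mbl1, a mannose-binding lectin, had 3.74, 6.27, 8.89 and 10.1 CPM. Cr1l encodes Crry, the rodent membrane regulator that does the work of CD46 and CD55. Its CPM was 41.9, 48.0, 51.0 and 49.1 (47.5 ± 3.91), with an adjusted p of 0.0477 close to the threshold. Tumour 3 held the highest value of 8 of these 14 genes, against 30.1% of all genes tested.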

How the data were processed

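RNA of 4 control KP lung tumours was analysed from gene counts. The authors deposited raw counts per Ensembl gene without normalization, and their notes name bcl2fastq 2.17, Cutadapt 1.4.2, HISAT2 on mm10 and featureCounts 1.4.4. The strand setting and annotation release are not given in the sources used here. Reads shared by overlapping or near-identical genes could be lost or split. The authors also deposited log2 normalised counts, used as an alternative. The combined and single-tumour count tables were equal in 156068 of 156068 values, and no library pair agreed within sampling noise.

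Library sizes were scaled by TMM (edgeR 4.0.16, R 4.3.3). For log2 CPM, counts were raised by 0.5 and effective sizes by 1. Lengths and positions are those of GENCODE M21 on GRCm38, matched by 96.6% of 39017 identifiers. Near-identical stretches of at least 80 nt at 97% identity were found with BLAST 2.17.0. The chi-square test was first checked on simulated counts. Alternatives were DESeq2 1.42.0 size factors, library size only, other filters, offsets and lengths, the deposited log2 values, and leaving out each tumour.

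All 33 members were named, ordered by role, and so were the 8 most abundant of the other complement genes and the 3 genes nearest in profile to C3 and to C1qa. The members, the pairs and the lists of other complement and cell type marker genes (141 genes, all matched) were chosen with earlier results of these data known. 1 further allele of the model is not reported here.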

Additional observations from a re-analysis of the deposited data

Results flagged for a closer look

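In 46 results with 4 values each, the gap of the highest or lowest tumour to its nearest neighbour was compared with Dixon's 95% limit. This limit was passed in 5 of them, and chance passes it in about 1 of 20. C3ar1 in tumour 4 stood apart at 11.2 CPM, although its spread did not exceed counting noise. The difference of Cfi minus C3 in tumour 3 stood apart at -2.80 log2 units per kb, from 0.97 to 1.40 in the others. The alveolar type 2 markers were low in tumour 1, with a mean log2 CPM of 11.13. The T cell markers were high in tumour 3, with a mean log2 CPM of 1.88, and the fibroblast markers were low in tumour 4, with a mean log2 CPM of 4.96.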

How the results depend on the processing

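With DESeq2 size factors 19 of 21 members varied beyond counting noise, against 76.6% of all genes tested. With library sizes alone it was 19 of 21 against 77.3%. No filter gave 21 of 30 against 53.5%, and a mean CPM of at least 10 gave 16 of 16 against 85.3%. Leaving out 1 tumour gave 14 to 20 members (63.6% to 87.0%), and 8807 to 10244 of all genes (62.3% to 71.9%). Without tumour 3 the shares were 63.6% of members (14 of 22) and 62.4% of all genes (8807 of 14120), so the higher share of members with all tumours (90.5% against 76.7%) was not seen there. The count with a tumour apart was 0 with DESeq2 size factors, 0 with library sizes alone, 0 at a mean CPM of at least 10 and 3 of 30 with no filter, where all genes gave 3445 of 21175. It needs 4 tumours and could not be run with 3.

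Some pairs turned direction. Cfi minus C3 was -0.97 log2 units without length scaling, and -0.15 to 1.25 when 1 tumour was left out. Cd55 minus Cd59a was 0.64 without length scaling. C1ra minus C1rl was -0.046 to 0.33 when 1 tumour was left out. Cfb minus C2, with genes at the floor, was 0.034 with 2 added to each count, -1.16 to 0.77 when 1 tumour was left out, and 1.07 with the exons of each gene alone as length, which was chosen after seeing the data. The cause was not tested. The other 126 values of pairs kept their direction, and 198 values of member means moved by less than 1 SD between tumours. No paired analysis was possible because all samples form 1 group. Depth limits the members under 1 CPM, which rest on at most 23 counts in a tumour.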
